A study of Mus musculus with 32 samples.

Results

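Interferon-stimulated genes are the genes a cell turns on when it senses interferon. A fixed list of 48 of them, taken by gene symbol, was followed through all 5 expression tables of a mouse study of chemical reprogramming; each table lists 55401 genes and all 48 were found in each. The cells were OG2X129 embryonic fibroblasts on their way to chemically induced pluripotent stem cells (iPSC), and the study set out to compare reprogramming intermediates treated or engineered in several ways. RNA was sequenced in 32 libraries, in 16 groups of 2.

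Of the reprogramming intermediates, CD cultures received CD3254, an agonist of the retinoid X receptors, and DMSO cultures received the solvent. Rxra OE cultures overexpressed Rxra, which encodes a retinoid X receptor, and were set against CTR cultures, whose genotype label reads WT OE. Cultures named shE3 carried a knockdown of Exosc3, a subunit of the RNA-degrading exosome, and were set against shCTR cultures. In a further table, CD and DMSO cultures were sampled after 0, 4 and 8 h of actinomycin D, which blocks transcription. The last table holds iPSC lines made with CD (CD iPSC) or with DMSO (DMSO iPSC, where a title spelling of DMSP is taken for DMSO), R1 mouse embryonic stem cells (R1) and embryonic fibroblasts (MEF). The MEF genotype label names a wild-type hairpin and their treatment label names reprogramming, so the labels do not settle whether these fibroblasts were untouched. All reprogramming cultures shared one medium, with bFGF, serum and the compounds Parnate, 616452, EPZ004777, CHIR99021, Forskolin, VPA, vitamin C and AM580; the last is itself a retinoid. The labels do not give the day of sampling, or whether the 2 libraries of a group came from separate cultures, so every p-value below measures only the spread between these libraries.

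Type I interferons bind the receptor chains IFNAR1 and IFNAR2, whose kinases JAK1 and TYK2 activate transcription factors, STAT2 among them. STAT2 and IRF9 are subunits of a complex that binds the interferon-stimulated response element (ISRE) in promoters. Interferon gamma acts through another motif, the gamma-activated site (GAS). The proteins made in response block viral entry, bind or cut viral RNA, modify other proteins with ISG15, and load peptides onto MHC class I. Pluripotent cells are known to respond weakly to interferon.

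Promoter windows from 250 bases before to 50 bases after the transcription start were taken from RefSeq (GRCm38.p6, the assembly also called mm10) and matched 38 of the 48 members by symbol. The ISRE core, GAAA then any 2 bases then GAAA, searched on both strands with overlapping matches counted, occurred in 20 of the 38 windows (52.6%), against 943 of all 27025 windows in the table (3.49%). The GAS core, TTC then any 3 bases then GAA, also searched on both strands, occurred in 10 of the 38 (26.3%), against 2288 of all windows (8.47%). A match describes the letters in the window and says nothing about binding. The 5 windows below belong to members that the results turn on: a member with the largest rise in CD cultures, a pair of IFIT genes that moved in opposite directions, the gene with the largest rise in Rxra OE cultures, and a window holding the starts of a pair of antigen presentation genes that moved apart. Sequences run 5′ to 3′ on the gene's own strand in lower case, and capitals mark the ISRE core on either strand.
Isg15 (chr4:156200769-156201068, minus strand): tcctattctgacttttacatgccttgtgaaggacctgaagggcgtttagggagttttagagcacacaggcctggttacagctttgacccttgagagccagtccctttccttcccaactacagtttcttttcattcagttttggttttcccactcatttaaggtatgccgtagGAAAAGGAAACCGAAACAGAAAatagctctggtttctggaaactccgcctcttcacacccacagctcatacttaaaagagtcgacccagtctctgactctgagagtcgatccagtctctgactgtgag
Ifit1 (chr19:34640639-34640938, plus strand): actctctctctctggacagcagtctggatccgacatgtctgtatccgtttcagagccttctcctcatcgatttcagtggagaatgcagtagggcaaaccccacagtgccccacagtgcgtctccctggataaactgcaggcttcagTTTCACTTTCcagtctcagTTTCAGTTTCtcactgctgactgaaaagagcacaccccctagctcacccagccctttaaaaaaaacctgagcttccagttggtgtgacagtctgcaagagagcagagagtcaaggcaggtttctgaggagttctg
Ifit2 (chr19:34550444-34550743, plus strand): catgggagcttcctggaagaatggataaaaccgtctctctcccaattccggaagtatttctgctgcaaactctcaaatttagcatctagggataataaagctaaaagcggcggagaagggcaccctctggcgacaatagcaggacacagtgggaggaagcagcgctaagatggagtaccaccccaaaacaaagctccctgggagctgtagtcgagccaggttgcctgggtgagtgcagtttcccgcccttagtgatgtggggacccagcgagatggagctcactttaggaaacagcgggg
Ifitm1 (chr7:140967826-140968125, plus strand): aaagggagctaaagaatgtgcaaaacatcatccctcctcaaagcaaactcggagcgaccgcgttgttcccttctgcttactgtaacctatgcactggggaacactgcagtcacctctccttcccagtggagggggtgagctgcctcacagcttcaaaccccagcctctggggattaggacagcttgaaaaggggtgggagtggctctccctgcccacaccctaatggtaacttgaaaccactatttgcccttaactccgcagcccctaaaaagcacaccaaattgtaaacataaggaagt
Tap1 (chr17:34187306-34187605, plus strand): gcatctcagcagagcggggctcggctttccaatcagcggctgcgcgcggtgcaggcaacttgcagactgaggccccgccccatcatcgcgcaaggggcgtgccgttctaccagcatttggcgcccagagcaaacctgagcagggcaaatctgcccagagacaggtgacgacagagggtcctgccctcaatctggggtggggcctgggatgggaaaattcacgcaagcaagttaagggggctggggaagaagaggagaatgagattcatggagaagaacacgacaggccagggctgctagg

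The Isg15 window holds 3 overlapping matches, which begin 78, 72 and 66 bases before the start. The Ifit1 window holds 2, which begin 104 and 85 bases before the start. The windows of Ifit2, Ifitm1 and Tap1 hold none, and RefSeq lists 2 starts for Ifit2, neither with a match. The Tap1 start at 34187556 on the plus strand and the Psmb9 start at 34187330 on the minus strand lie 226 bases apart on chromosome 17, so the Tap1 window contains both.

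Levels in 4 tables are TPM (transcript abundance scaled for length and library) as deposited, and in the actinomycin D table they are RPM (reads scaled to the library total, not to length). Changes are log2 differences of (value + 1) after each library was rescaled so that the median gene did not change, and calls are limma's test with Benjamini-Hochberg adjustment over all genes at an adjusted p under 0.05. On the deposited scale the median gene stood 0.62 higher (log2) in Rxra OE than in CTR cultures and 0.18 higher in CD than in DMSO cultures. Mitochondrial genes took 50.9 to 62.0% of TPM in those tables and 4.93 to 17.4% in the other 3 tables. Rxra had 21.7 and 21.7 TPM in Rxra OE cultures, against 8.70 and 9.57 in CTR cultures. Exosc3 had 5.97 and 4.01 TPM in shE3 cultures, against 8.86 and 10.2 in shCTR cultures (log2 change −0.81 ± 0.17 SE, adjusted p = 0.0215). Levels between tables were scaled separately and are not compared by a test.

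Most interferon-stimulated genes that could be tested were higher in CD than in DMSO cultures. Of 33 members with enough signal, 24 were called higher and 4 lower, where 31.8% of all 12981 genes tested were called higher and 30.0% lower. Of the 24, Ifi27l2a, Oas1a and Gbp7 averaged 0.50, 0.68 and 0.58 TPM in DMSO cultures. They passed the filter only through the CD libraries, so they could not have been called lower. Gbp3 and Usp18 averaged 0.997 and 1.15 TPM in DMSO cultures. Both were below 1 TPM in DMSO replicate 2, so they too needed CD libraries to pass. The median change was 0.41 over the members tested and 0.02 over all genes. The other 15 members stayed below the filter of 1 in at least 2 libraries. They were Ifit3b, Ifi44, Oas2, Oas3, Oasl1, Mx1, Mx2, Rsad2, Iigp1, Parp14, Trim30a, Herc6, Samd9l, Cmpk2 and Psmb9. The members summed to between 1400 and 1407 TPM in CD cultures, against 1109 to 1163 TPM in DMSO cultures.

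Isg15, which encodes a ubiquitin-like protein that is attached to other proteins, changed most among members with a mean of at least 5 TPM. It had 19.3 and 22.8 TPM in CD cultures, against 3.94 and 4.67 TPM in DMSO cultures. The CD libraries were both far above the DMSO libraries, and the change was 1.89 ± 0.09 (SE, adjusted p = 9.47e-05). The other genes of the ISG15 and ADP-ribose group that could be tested were also called higher. They were Trim25, a ubiquitin and ISG15 ligase (0.55), Dtx3l, a ubiquitin ligase (0.40), and its partner Parp9, an ADP-ribosyltransferase family member (0.30).

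The IFIT family, whose proteins bind foreign RNA, moved in both directions. Ifit1 had 5.98 and 4.69 TPM in CD cultures, against 2.45 and 1.90 TPM in DMSO cultures (0.85 ± 0.15, adjusted p = 0.00585). Ifit2 had 16.2 and 14.5 TPM in CD cultures, against 36.1 and 38.1 TPM in DMSO cultures (−1.40 ± 0.07, adjusted p = 8.91e-05). In neither gene did the groups overlap, and Ifit2 was the most abundant member of the family in both groups. Ifit3 had 5.39 and 5.67 TPM in CD cultures, against 5.62 and 6.91 TPM in DMSO cultures, which overlap; the change relative to the median gene was −0.31. Ifit3 shares 51.2% of its 50-base words with Ifit3b, so the counting could have divided reads between them.

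Oasl2, a relative of the 2′-5′-oligoadenylate synthetases, had 5.39 and 6.68 TPM in CD cultures, against 1.85 and 2.09 TPM in DMSO cultures (1.10 ± 0.11, adjusted p = 0.000641). Oas1a, a synthetase that senses double-stranded RNA, had 2.16 and 1.84 TPM in CD cultures, against 0.71 and 0.65 TPM in DMSO cultures, and was called higher (0.73); it shares 57.6% of its words with other genes. Eif2ak2, which encodes the RNA-sensing kinase PKR, was at 5.47 and 5.65 TPM in CD cultures, against 3.94 and 4.35 TPM in DMSO cultures, and did not pass (0.20, adjusted p = 0.0552).

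The small membrane proteins that hold back viral entry or release also divided. Ifitm1 had 56.7 and 55.0 TPM in CD cultures, against 25.3 and 24.7 TPM in DMSO cultures (0.95 ± 0.05, adjusted p = 0.000145). Ifitm2 had 328 and 327 TPM in CD cultures, against 370 and 385 TPM in DMSO cultures (−0.39 ± 0.03, adjusted p = 0.000297). Both CD libraries were below both DMSO libraries for Ifitm2, which shares 48.5% of its words with a predicted gene. Bst2, or tetherin, was called higher (0.41), as was Ifitm3 (0.19).

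Of the interferon-inducible GTPases, which act on membranes around pathogens, 4 of 5 tested were called higher. Irgm1 had 8.39 and 9.69 TPM in CD cultures, against 4.39 and 4.83 TPM in DMSO cultures (0.68 ± 0.08, adjusted p = 0.00134). Gbp3, Igtp and Gbp7 had changes of 0.64, 0.61 and 0.55 at levels under 4 TPM. Gbp2 did not pass.

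Among antigen presentation genes, the immunoproteasome subunit Psmb8 had 6.69 and 7.15 TPM in CD cultures, against 2.89 and 2.75 TPM in DMSO cultures (0.90 ± 0.08, adjusted p = 0.000467). B2m, the light chain of MHC class I, had 191 and 196 TPM in CD cultures, against 130 and 131 TPM in DMSO cultures (0.38 ± 0.04, adjusted p = 0.000553). The peptide transporter subunit Tap1 had 5.08 and 5.85 TPM in CD cultures, against 6.08 and 6.96 TPM in DMSO cultures (−0.38 ± 0.08, adjusted p = 0.0124). The groups lay close together for Tap1 and apart for Psmb8 and B2m.

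The transcription factor subunits Stat2 and Irf9 were called higher. Stat2 had 11.6 and 10.8 TPM in CD cultures, against 6.35 and 6.65 TPM in DMSO cultures (0.53 ± 0.07, adjusted p = 0.00182). Irf9 had 9.79 and 9.76 TPM in CD cultures, against 6.01 and 6.83 TPM in DMSO cultures (0.37 ± 0.07, adjusted p = 0.00546). Usp18, which removes ISG15 and restrains the receptor, was called higher (0.72), and Irf1 stayed at 0.01. In the remaining groups Ifi27l2a (1.39), Xaf1 (0.89), Rtp4 (0.59), Lgals3bp (0.29) and Ifi27 (0.15) were called higher. Ifi35 and the chemokine gene Cxcl10 did not pass, and Cxcl10 was at 0.87 and 1.18 TPM in CD cultures, against 0.35 and 0.97 TPM in DMSO cultures.

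Leaving out single libraries left 18 to 22 members called higher and 2 to 4 lower. Ifi27 (0.11 to 0.17) and Parp9 (0.28 to 0.32) lost the call whichever of the 4 libraries was left out. Dtx3l lost it without DMSO replicate 1 or either CD library (0.36 to 0.41), Ifit3 without DMSO replicate 2 or either CD library (−0.32 to −0.21), Tap1 without DMSO replicate 2 or CD replicate 1 (−0.33 to −0.30), and Ifitm3 without DMSO replicate 1 (0.16). On the deposited scale 26 of 32 members were called higher and 2 lower, where 43.1% and 19.5% of genes were, with Ifit3 and Tap1 no longer called. The 15 macrophage markers summed to 13.4 to 14.3 TPM in CD cultures, against 12.1 to 12.2 TPM in DMSO cultures, with 3 of 15 at 1 TPM or more in each library. All 10 fibroblast markers were called lower in CD cultures, where they summed to 914 to 943 TPM, against 1373 to 1438 TPM in DMSO cultures; their part in the result was not tested. In bulk RNA, fewer cells of a type and less RNA per cell cannot be told apart.

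**Figure D1:**
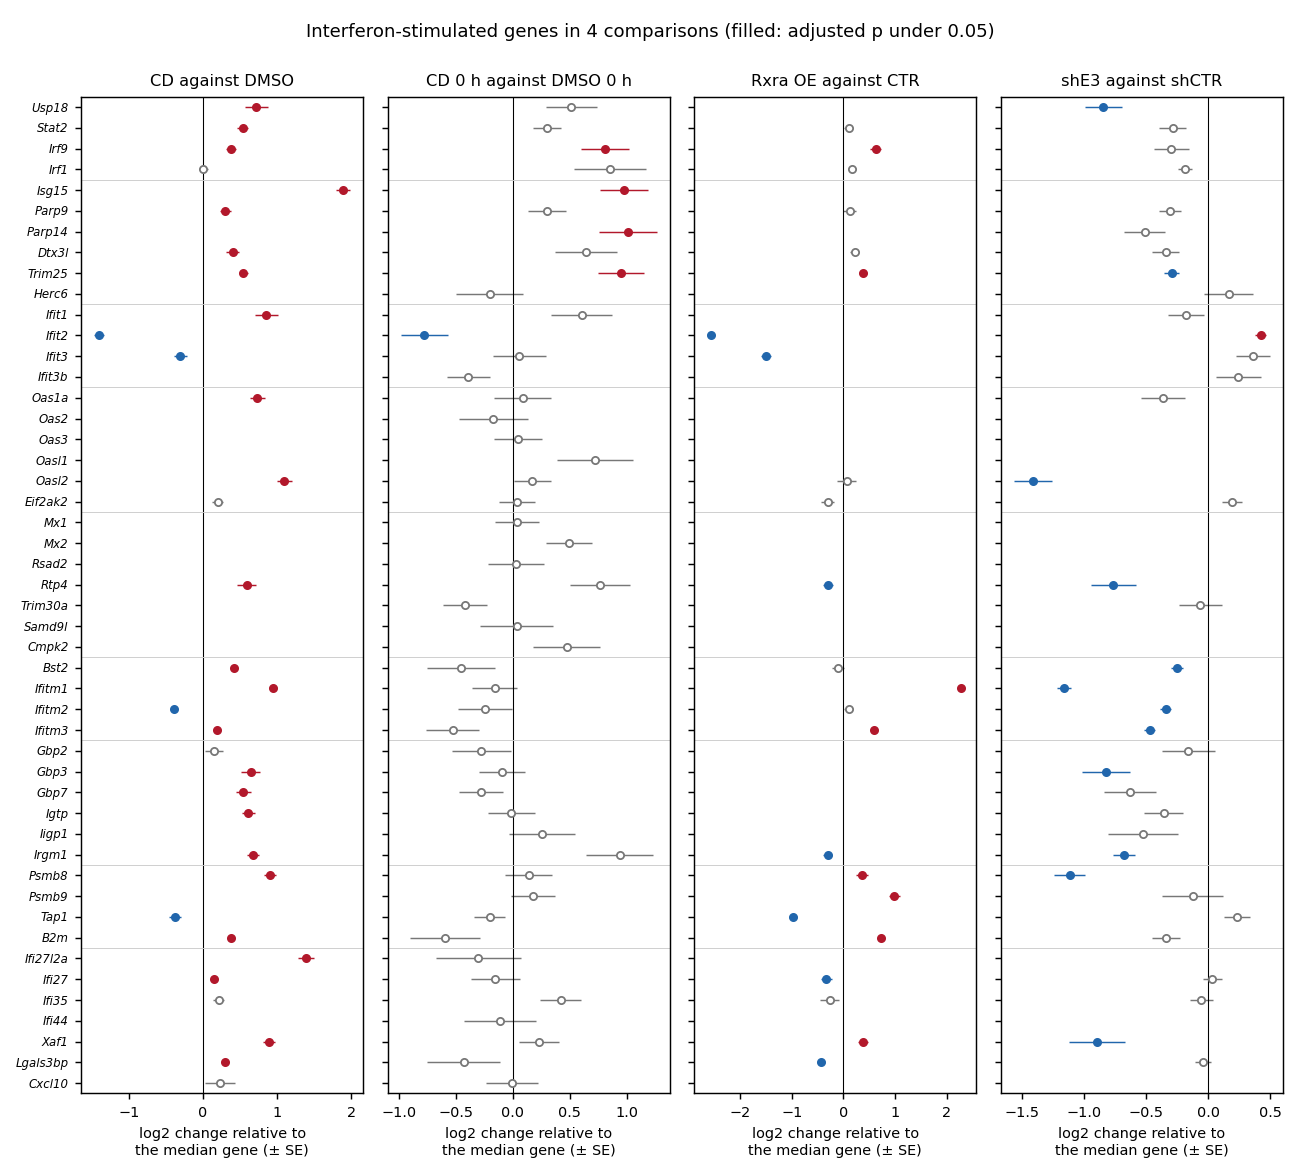
Log2 change relative to the median gene for each member (rows, grouped by role) in 4 comparisons (panels, each with its own horizontal scale); bars are standard errors, filled points passed an adjusted p of 0.05, open points did not, and an empty row was not tested. Most filled points lie right of 0 for CD against DMSO (24 of 28) and left of 0 for shE3 against shCTR (12 of 13), and Ifit2 lies left of 0 in the CD and Rxra OE panels and right of 0 in the shE3 panel.

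The second CD and DMSO comparison, at 0 h of the actinomycin D series, showed fewer calls. All 48 members could be tested; 4 were called higher and 1 lower, where 7.4% of 17022 genes were called higher and 8.62% lower. The median change was 0.04 over the members and 0.08 over all genes. Isg15 had 8.104 and 10.4 RPM in CD cultures, against 4.05 and 3.47 in DMSO cultures (0.98 ± 0.21, adjusted p = 0.0169). Trim25 had 142 and 96.2 RPM in CD cultures, against 63.4 and 47.999 in DMSO cultures (0.95 ± 0.20). Irf9 had 44.7 and 32.8 RPM in CD cultures, against 23.4 and 16.4 in DMSO cultures (0.81 ± 0.21). In each of these genes both CD libraries were above both DMSO libraries, as they were for Parp14, an ADP-ribosyltransferase, at 15.8 and 12.3 RPM in CD cultures, against 6.59 and 5.11 in DMSO cultures (1.01 ± 0.25).

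Ifit2 was again lower, with 77.7 and 48.2 RPM in CD cultures, against 104 and 90.7 in DMSO cultures (−0.77 ± 0.21, adjusted p = 0.0351). Of the 24 members called higher in the first CD table, 3 were called higher here, 14 had a positive change and 10 a negative one; of the 4 called lower, 1 was called lower and 3 had a negative change. Of those that did not pass here, Ifitm1 stood at −0.16, Psmb8 at 0.14, B2m at −0.59, Stat2 at 0.30 and Ifit1 at 0.61. The CD libraries lay far apart for B2m, at 219 and 409 RPM.

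Several of these calls rest on single libraries. Isg15 lost its call without DMSO 0 h replicate 2 (0.94). Irf9 (0.59 to 0.63), Parp14 (0.84 to 0.91) and Trim25 (0.66 to 0.81) lost theirs without CD 0 h replicate 1 or DMSO 0 h replicate 2. Ifit2 lost its call without CD 0 h replicate 2 or either DMSO 0 h library (−0.81 to −0.44), and on the deposited scale (−0.66, adjusted p = 0.085). The call of Ifit2 was also lost with the replicate number as a block in the fit. With single libraries left out, 0 to 9 members were called higher and 0 to 5 lower. On the deposited scale 4 of 47 were called higher and 0 lower, where 8.22% and 6.41% of genes were. No member was called by limma when only these 4 libraries were fitted (6 had an unadjusted p under 0.05) or with scaling by ERCC spike-ins (17 did). In contrast, edgeR called 5 members higher and 1 lower, where it called 1117 of 17022 genes higher and 1857 lower. DESeq2 called 7 and 1, where it called 2091 of 15702 genes higher and 2074 lower. Macrophage markers summed to 173 to 274 RPM in CD cultures, against 398 to 554 in DMSO cultures, with 7 of 14 tested markers called lower in CD. Fibroblast markers summed to 3999.8 to 4061 RPM in CD cultures, against 5198 to 5516 in DMSO cultures, with 8 of 10 called lower (median −0.87). Their part in the result was not tested.

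With Rxra overexpression, the membrane restriction factors Ifitm1 and Ifitm3 and the antigen presentation genes B2m, Psmb8 and Psmb9 were called higher, and Ifit2 and Ifit3 were called lower. Both shares of the members called lay below those of all genes. Of 24 members that could be tested, 8 were called higher and 7 lower, where 38.4% of 13136 genes were called higher and 33.5% lower. Of those called, Psmb9 and Xaf1 passed the filter only through the Rxra OE libraries, and Ifit3 and Rtp4 only through the CTR libraries. Their direction was thus set by the filter. The median change was 0.10 over the members tested and 0.06 over all genes. On the deposited scale 14 of 25 members were called higher and 3 lower, where 68.6% and 14.0% of genes were. The other 24 members did not reach the filter, and Isg15 was among them at 0.58 and 0.95 TPM in Rxra OE cultures, against 0.72 and 0.68 TPM in CTR cultures. Ifit1 was likewise low, at 0.24 and 0.29 TPM in Rxra OE cultures, against 0.28 and 0.30 TPM in CTR cultures.

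Ifitm1 had 152.1 and 152.0 TPM in Rxra OE cultures, against 18.5 and 20.0 TPM in CTR cultures (2.27 ± 0.05, adjusted p = 1.05e-05). It had the largest rise of any member in this table and the groups were far apart. Ifitm3 had 318 and 290 TPM in Rxra OE cultures, against 119.9 and 135 TPM in CTR cultures (0.59 ± 0.06, adjusted p = 0.000485). Ifitm2 (0.10) and Bst2 (−0.10) did not pass, and on the deposited scale they stood at 0.76 and 0.55 and passed.

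B2m had 247 and 249.25 TPM in Rxra OE cultures, against 92.03 and 97.6 TPM in CTR cultures (0.72 ± 0.05, adjusted p = 0.000109). Psmb9, an immunoproteasome subunit, had 2.45 and 2.32 TPM in Rxra OE cultures, against 0.41 and 0.31 TPM in CTR cultures (0.99 ± 0.10, adjusted p = 0.000407). Psmb8 was called higher (0.36). Tap1, whose start lies beside that of Psmb9 in the window printed above, had 5.14 and 5.39 TPM in Rxra OE cultures, against 6.71 and 8.05 TPM in CTR cultures (−0.98 ± 0.08, adjusted p = 0.000189). So both Rxra OE libraries were above both CTR libraries for Psmb9 and below them for Tap1. Psmb9 passed the filter only through the Rxra OE libraries, so it could not have been called lower.

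Ifit2 had 6.25 and 6.498 TPM in Rxra OE cultures, against 27.3 and 28.6 TPM in CTR cultures (−2.57 ± 0.06, adjusted p = 1.05e-05). Ifit3 had 0.78 and 0.97 TPM in Rxra OE cultures, against 3.01 and 3.07 TPM in CTR cultures (−1.51 ± 0.10, adjusted p = 7.65e-05). Both stayed lower on the deposited scale (−1.97 and −1.11). Irf9 had 6.06 and 6.86 TPM in Rxra OE cultures, against 2.45 and 2.26 TPM in CTR cultures (0.63 ± 0.11, adjusted p = 0.00297), and Trim25 (0.38) and Xaf1, a pro-apoptotic factor (0.38), were also called higher. Stat2 had 5.95 and 5.23 TPM in Rxra OE cultures, against 3.05 and 3.44 TPM in CTR cultures, a change of 0.10 relative to the median gene that did not pass; on the deposited scale it was 0.64 and passed.

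The other calls in this table depend on the scale. Lgals3bp (−0.43), Ifi27 (−0.33), Irgm1 (−0.31) and Rtp4 (−0.30) were called lower relative to the median gene, and on the deposited scale their changes were 0.20, 0.28, 0.20 and 0.04 with no call. Ifi27 lost its call without either CTR library or Rxra OE replicate 2 (−0.35 to −0.18), and Irgm1 (−0.33 to −0.25) and Rtp4 (−0.34 to −0.24) lost theirs without CTR replicate 1 or either Rxra OE library. Psmb8 lost its call without CTR replicate 1 or Rxra OE replicate 1 (0.27 to 0.28), and Xaf1 without CTR replicate 1 (0.38). With single libraries left out, 5 to 9 members were called higher and 4 to 5 lower. Fibroblast markers summed to 549.0 to 550.0 TPM in Rxra OE cultures, against 1309 to 1450 TPM in CTR cultures, and macrophage markers to 12.9 to 13.1 TPM, against 16.5 to 18.02 TPM. Their part in the result was not tested.

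Knockdown of Exosc3 was accompanied by lower levels of many members. Of 36 that could be tested, 12 were called lower and 1 higher, where 14.7% of 15691 genes were called lower and 13.1% higher. The median change was −0.30 over the members tested and −0.02 over all genes. The 12 members that did not reach the filter included Isg15, at 0 and 0.16 TPM in shE3 cultures, against 0 and 0.31 TPM in shCTR cultures. The members summed to between 969 and 970.4 TPM in shE3 cultures, against 1158 to 1264 TPM in shCTR cultures.

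All 4 membrane restriction factors were called lower. Ifitm1 had 37.9 and 37.9 TPM in shE3 cultures, against 80.2 and 96.1 TPM in shCTR cultures (−1.16 ± 0.05, adjusted p = 0.000695). Ifitm3 had 162 and 169 TPM in shE3 cultures, against 223 and 246 TPM in shCTR cultures (−0.47 ± 0.04, adjusted p = 0.0029). Ifitm2 and Bst2 had changes of −0.34 and −0.25.

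Oasl2 had 1.66 and 1.16 TPM in shE3 cultures, against 5.40 and 5.53 TPM in shCTR cultures (−1.42 ± 0.15, adjusted p = 0.00391). Psmb8 had 1.89 and 2.02 TPM in shE3 cultures, against 5.06 and 5.97 TPM in shCTR cultures (−1.12 ± 0.12, adjusted p = 0.00406). Irgm1 had 9.28 and 8.94 TPM in shE3 cultures, against 13.9 and 17.3 TPM in shCTR cultures (−0.68 ± 0.09, adjusted p = 0.00592). In these genes the groups did not overlap. Rtp4, a chaperone of membrane receptors, had 2.89 and 3.07 TPM in shE3 cultures, against 4.61 and 7.46 TPM in shCTR cultures (−0.77 ± 0.18, adjusted p = 0.0327). Xaf1 (−0.90), Usp18 (−0.85), Gbp3 (−0.82) and Trim25 (−0.29) were also called lower. Of these, Xaf1 passed the filter only through the shCTR libraries, so it could not have been called higher.

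Ifit2 was the exception. It had 131 and 122 TPM in shE3 cultures, against 92.5 and 99.6 TPM in shCTR cultures (0.42 ± 0.04, adjusted p = 0.0034), and both shE3 libraries were above both shCTR libraries. Ifit3, at 9.55 and 8.86 TPM in shE3 cultures, against 7.66 and 6.5005 TPM in shCTR cultures, did not pass (0.36, adjusted p = 0.107), nor did Ifit1 (−0.18). Stat2 (−0.29), Irf9 (−0.30), Irf1 (−0.19), Tap1 (0.23) and B2m (−0.34, adjusted p = 0.0789) did not pass.

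With single libraries left out, 7 to 9 members were called lower and 1 higher, and without the filter on low values 6 were called lower. On the deposited scale Bst2 (−0.28) and Trim25 (−0.32) were no longer called and B2m was (−0.36). Trim25 lost its call without any 1 of the 4 libraries (−0.32 to −0.26). Bst2 lost it without either shCTR library or shE3 replicate 1 (−0.27 to −0.21), Usp18 without either shCTR library (−0.87 to −0.82), and Xaf1 without either shE3 library (−0.94 to −0.85). Gbp3 (−0.87 to −0.60) and Rtp4 (−0.81 to −0.53) lost theirs without shCTR replicate 2 or either shE3 library. Macrophage markers summed to 390.7 to 391 TPM in shE3 cultures, against 169 to 202 TPM in shCTR cultures. Of the 12 that could be tested, Lyz2 and Tyrobp were called higher and 10 did not pass, with a median change of 0.15. Lyz2, a lysozyme of macrophages, had 339 and 337 TPM in shE3 cultures, against 126 and 154 TPM in shCTR cultures, and the other 14 summed to 52.2 and 54.5 TPM in shE3 cultures, against 43.3 and 47.9 TPM in shCTR cultures. Their part in the result was not tested.

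Set side by side, the 3 reprogramming comparisons use separate libraries, and 23 members could be tested in all of them. Of the 24 members called higher with CD, 7 were called higher and 4 lower with Rxra overexpression, and 0 were called higher and 11 lower with Exosc3 knockdown. With Rxra overexpression 5 of the 24 did not pass and 8 could not be tested. With Exosc3 knockdown 11 did not pass and 2 could not be tested. The shares of all genes below likewise count genes that could not be tested. Of all 4131 genes called higher with CD, 79.2% were called higher and 2.81% lower with Rxra overexpression, and 2.32% higher and 35.1% lower with Exosc3 knockdown. The 4 members lower with Rxra overexpression were Lgals3bp, Ifi27, Irgm1 and Rtp4, which stood above 0 on the deposited scale as given above. Trim25, Ifitm1, Ifitm3, Xaf1 and Psmb8 were called higher with CD, higher with Rxra overexpression and lower with Exosc3 knockdown. Ifit2 was called lower, lower and higher in the same order. Ifi44, Oas2, Oas3, Oasl1, Mx1, Mx2, Rsad2, Samd9l and Cmpk2, which include genes of the MX GTPases and of the antiviral effector viperin (Rsad2), stayed below the filter in all 3 tables. Mx2 is annotated as a polymorphic pseudogene. Of members with a promoter window, 11 of the 16 tested that hold an ISRE core were called higher and 2 lower with CD, and 8 of the 12 tested without one were called higher and 2 lower. With Exosc3 knockdown, 5 of 16 with the core and 5 of 14 without it were called lower.

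**Figure D2:**
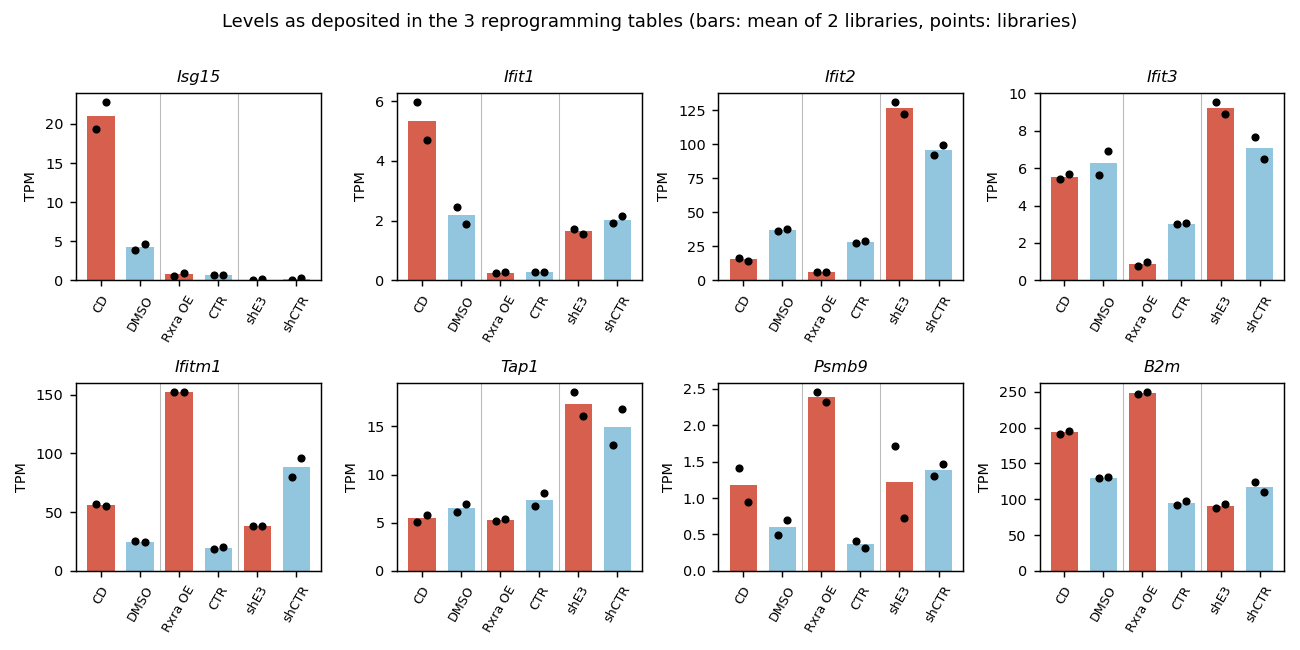
TPM as deposited of 8 members in the 3 reprogramming tables (vertical axes, one scale per gene, starting at 0); bars are means of 2 libraries and points are the libraries, and thin lines divide the tables, which were scaled separately. Ifit2 is lower in CD and Rxra OE cultures and higher in shE3 cultures than in their controls, and Ifitm1 is the reverse.

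Genes above and beside the members in the pathway were also examined. The 21 interferon genes summed to at most 1.24 TPM in any library of the 3 reprogramming tables, and none passed the filter there. Of 6 interferon receptor genes, 1 was called higher and 4 lower with CD, where 31.8% of all genes were called higher and 30.0% lower. The largest change was in Ifngr1, a chain of the interferon gamma receptor, with 28.0 and 27.7 TPM in CD cultures, against 40.3 and 40.5 TPM in DMSO cultures (−0.70 ± 0.05). Ifnar1 had a change of −0.61 and Il10rb, a shared receptor chain of the lambda interferons, one of −0.45. Ifnar2, called lower at −0.15, stood at 0.03 on the deposited scale. With Rxra overexpression 1 was called higher and 5 lower, where 38.4% of all genes were called higher and 33.5% lower. Ifngr1 (−1.28) and Ifnar1 (−0.91) were again lower, and stood at −0.65 and −0.29 on the deposited scale. Ifnar2 (−0.71), Il10rb (−0.65) and Ifngr2 (−0.51) stood at −0.08, −0.04 and 0.08 there, with no call. The gene called higher, Ifnlr1 (0.78), passed the filter only through the Rxra OE libraries. With Exosc3 knockdown 2 were called higher and 0 lower (13.1% and 14.7% of all genes).

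Among the kinases and further interferon regulatory factors, Jak1 had 28.6 and 29.3 TPM in CD cultures, against 42.9 and 45.5 TPM in DMSO cultures (−0.77 ± 0.04, adjusted p = 9.47e-05). Jak1 was also called lower with Rxra overexpression, with 17.3 and 17.4 TPM in Rxra OE cultures, against 37.8 and 37.5 TPM in CTR cultures (−1.71 ± 0.07). Irf7, which amplifies interferon production, had 4.49 and 4.17 TPM in CD cultures, against 1.89 and 1.67 TPM in DMSO cultures (0.80 ± 0.10, adjusted p = 0.00141). Irf7 did not pass with Exosc3 knockdown (−0.29).

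Of 44 further interferon-stimulated genes that are not members, 20 could be tested with CD, of which 8 were called higher and 5 lower (31.8% and 30.0% of all genes), and 16 with Rxra overexpression, of which 4 were called higher and 8 lower (38.4% and 33.5% of all genes). With Exosc3 knockdown 24 could be tested, of which 2 were called higher and 2 lower (13.1% and 14.7% of all genes). With Rxra overexpression, Helz2 passed the filter only through the Rxra OE libraries and Ifi204 only through the CTR libraries. On the deposited scale Ddx58, Znfx1, Pml and Tap2 stayed lower, and Psmb10 (−0.14) and Slfn5 (−0.006) lost their calls. Helz2, Mov10, H2-K1 and H2-D1 stayed higher. Tapbp (−0.24) turned to a higher call (0.38), and Adar (0.48) and Trim21 (0.28) were also called higher. There 68.6% of all genes were called higher and 14.0% lower. The MHC class I heavy chain gene H2-K1 had 166 and 154 TPM in Rxra OE cultures, against 28.3 and 30.7 TPM in CTR cultures (1.75 ± 0.06). It had 124 and 130.1 TPM in CD cultures, against 70.6 and 75.6 TPM in DMSO cultures (0.60 ± 0.04), and it was called lower in shE3 cultures (−0.64). Pml, a nuclear body protein, was called lower with CD (−0.70) and Rxra overexpression (−1.47).

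Over actinomycin D, Irf1, Irgm1, Irf9, Trim25, Parp14 and Dtx3l were called lower at 8 h than at 0 h in both arms, and B2m was called higher in CD cultures. The members called were no larger a share than that of all genes, except for the lower calls in DMSO cultures, which were close to it. In CD cultures 10 of 48 members were called higher at 8 h than at 0 h and 10 lower, where 22.9% of all genes were called higher and 31.0% lower. In DMSO cultures 2 were called higher and 7 lower, where 15.2% and 14.1% of all genes were. With transcription blocked, "higher" means a larger share of the remaining RNA. On the deposited scale, on which the median gene fell by 0.34 in CD cultures and by 0.33 in DMSO cultures, 5 of 47 members were higher and 15 lower in CD cultures, where 13.2% and 41.3% of genes were. In DMSO cultures 0 of 47 were higher and 15 lower by limma, where 3.73% and 27.2% of genes were, and 22 members had an unadjusted p under 0.05.

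Irf1, a short-lived transcription factor of the interferon response, had 31.7 and 16.9 RPM at 0 h, 3.58 and 3.18 at 4 h, and 5.61 and 5.29 at 8 h in CD cultures (8 h against 0 h, −1.61 ± 0.32, adjusted p = 0.00386). In DMSO cultures it had 15.2 and 8.39 at 0 h, 1.93 and 2.49 at 4 h, and 2.52 and 4.88 at 8 h (−1.12 ± 0.32, adjusted p = 0.0269). The low point was at 4 h in both, with 13.9% of the 0 h level left in CD cultures and 18.8% in DMSO cultures as deposited. Irgm1 had 54.1 and 27.4 RPM at 0 h, 7.66 and 6.58 at 4 h, and 10.9 and 11.5 at 8 h in CD cultures (−1.39 ± 0.30). In DMSO cultures it had 21.2 and 15.3 at 0 h, 4.85 and 5.60 at 4 h, and 3.48 and 6.70 at 8 h (−1.36 ± 0.30).

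Irf9 (−1.05 in CD and −0.85 in DMSO cultures), Trim25 (−0.98 and −1.33), Parp14 (−1.20 and −0.81) and Dtx3l (−1.03 and −1.18) were called lower in both arms. Isg15 had 8.104 and 10.4 RPM at 0 h, 6.27 and 6.58 at 4 h, and 3.66 and 2.96 at 8 h in CD cultures (−0.97 ± 0.21, adjusted p = 0.00482). In DMSO cultures it had 4.05 and 3.47 at 0 h, 2.096 and 2.85 at 4 h, and 1.38 and 2.15 at 8 h, which did not pass (−0.53, adjusted p = 0.0759). Isg15 was therefore above the DMSO libraries in every CD library at each time. Rtp4 (−1.20), Cmpk2, a mitochondrial nucleotide kinase (−1.07), and Parp9 (−0.56) were called lower in CD cultures, and Stat2 (−0.51) in DMSO cultures.

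The transcripts that gained share were led by B2m. It had 219 and 409 RPM at 0 h, 555 and 620.2 at 4 h, and 640.1 and 649 at 8 h in CD cultures (1.41 ± 0.31, adjusted p = 0.00495). In DMSO cultures it had 361 and 480.2 at 0 h, 634 and 631 at 4 h, and 629.6 and 439.7 at 8 h, which overlap (0.72, adjusted p = 0.0991). Lgals3bp, a secreted glycoprotein (1.31), Bst2 (1.23), Ifitm3 (1.06), Ifi27l2a (1.06), Gbp7 (0.84), Oas2 (0.80), Ifi27 (0.70), Ifitm1 (0.64) and Trim30a (0.57) were called higher in CD cultures, and Ifitm2 (0.76) and Ifitm3 (0.71) in DMSO cultures. Ifit2 had 77.7 and 48.2 RPM at 0 h, 39.2 and 34.1 at 4 h, and 58.3 and 62.1 at 8 h in CD cultures, and 8 h against 0 h did not pass in either arm (0.28 in CD and 0.17 in DMSO cultures, against −0.02 and −0.20 on the deposited scale).

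The difference in loss between the arms was tested as an interaction, and 0 of 48 members passed with limma or with edgeR on the recovered reads, where 0.00587% of all genes passed in the higher direction and 0.0% in the lower. At an unadjusted p under 0.05 there were 5 members with limma and 7 with edgeR. DESeq2 on the recovered reads called 1 member, Gbp7, a guanylate-binding protein, where it called 28 of 10752 genes higher and 25 lower. Gbp7 had 8.19 and 10.9 RPM at 0 h and 15.3 and 13.5 at 8 h in CD cultures, and 9.91 and 11.7 at 0 h and 6.12 and 6.44 at 8 h in DMSO cultures (difference 1.1997 ± 0.27 with limma, adjusted p = 0.33, and 1.325 with DESeq2, adjusted p = 0.0445).

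In CD cultures, Bst2 (0.81) and Lgals3bp (0.82) lost their calls without CD 0 h replicate 1. Ifi27l2a (0.57 to 1.19), Ifi27 (0.46 to 0.79), Oas2 (0.54 to 0.81), Ifitm1 (0.37 to 0.71) and Parp9 (−0.61 to −0.47) lost theirs without CD 0 h replicate 1 or either CD 8 h library. Dtx3l (−0.9996 to −0.70) and Cmpk2 (−0.88 to −0.74) lost theirs without CD 0 h replicate 1 or CD 8 h replicate 1, and Trim30a without any 1 of the 4 libraries (0.53 to 0.62). In DMSO cultures Stat2 lost its call without 8 h replicate 1 (−0.50). Irf9 (−0.70 to −0.66), Irf1 (−0.84 to −0.79), Irgm1 (−1.20 to −1.07), Dtx3l (−1.07 to −0.88) and Ifitm3 (0.44 to 0.45) lost theirs without 0 h replicate 1 or 8 h replicate 1, and Ifitm2 (0.52 to 0.91) and Parp14 (−0.92 to −0.49) also without 0 h replicate 2. Ifitm1 in CD cultures stood at −0.03 when libraries were scaled by the ERCC spike-ins. Macrophage markers summed to 624 to 657 RPM at 8 h, against 173 to 274 at 0 h, in CD cultures, and to 573 to 735 at 8 h, against 398 to 554 at 0 h, in DMSO cultures. Their part in the result was not tested.

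**Figure D3:**
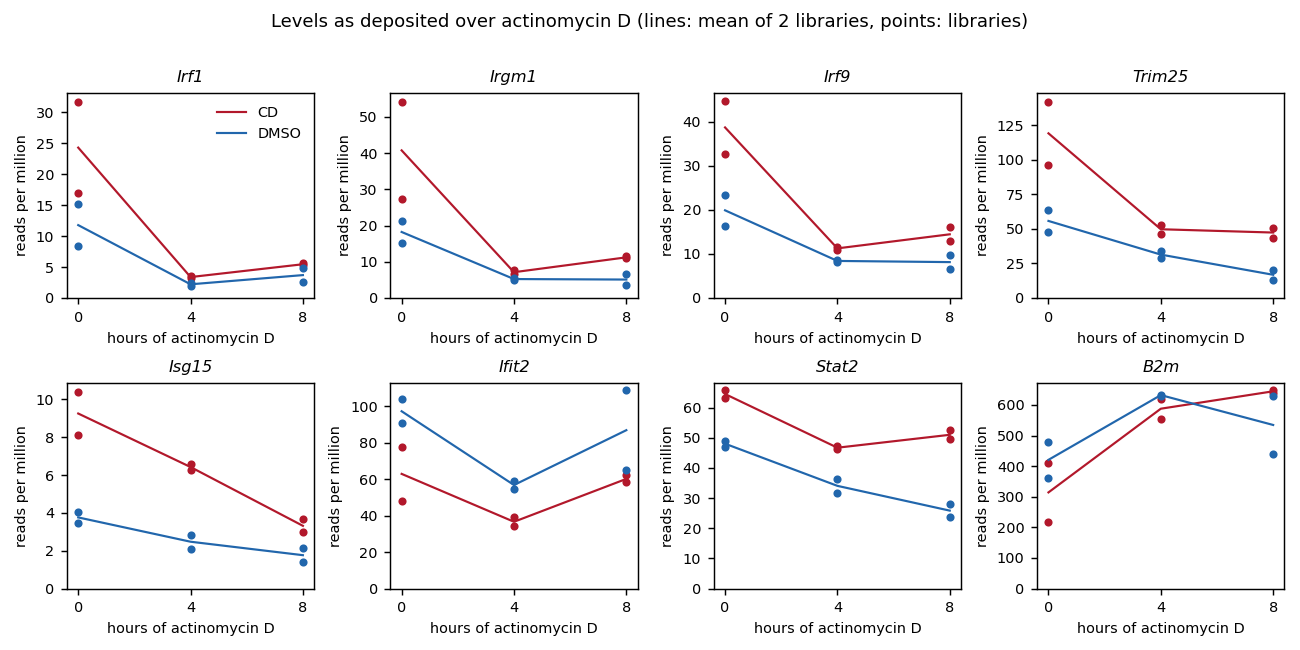
RPM as deposited (vertical axes, starting at 0) of 8 members at 0, 4 and 8 h of actinomycin D in CD and DMSO cultures; points are libraries and lines join means of 2. Irf1 and Irgm1 are lowest at or near 4 h, Isg15 is above its DMSO libraries in every CD library at each time, and B2m gains share of the remaining RNA in CD cultures.

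The pluripotent lines had far lower levels of nearly all members than the MEF libraries. They summed to 830 to 929 TPM in CD iPSC, 847 to 899 TPM in DMSO iPSC and 1035 to 1071 TPM in R1, against 5202 to 5682 TPM in MEF, where all 48 were at 1 TPM or more in both libraries. Against MEF, 44 members were called lower and 2 higher in CD iPSC, where 34.7% of 17399 genes were called lower and 34.4% higher. In DMSO iPSC 44 were called lower and 2 higher, where 34.2% and 34.1% of genes were, and in R1 43 were called lower and 3 higher, where 34.4% and 34.3% were. The lower call held in all 3 comparisons for 43 members. These comparisons share the MEF libraries. The counts are a description: 23 members were not at 1 TPM in 2 of the 6 pluripotent libraries and passed the filter only through MEF, so that they had to differ.

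The median change was −3.38 in CD iPSC, −3.22 in DMSO iPSC and −3.38 in R1, against 0.05, 0.06 and 0.04 over all genes. Those medians include members listed at 0 in both libraries of the pluripotent line, 14 in CD iPSC, 7 in DMSO iPSC and 9 in R1, for which the fitted change depends on the added 1. Over the members not at 0 in both, the medians were −2.84, −3.00 and −2.65. In all, 19 members were below 1 TPM in each of the 6 pluripotent libraries.

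Isg15 was listed at 0 in both CD iPSC libraries, at 1.11 and 0.59 TPM in DMSO iPSC and at 0 in both R1 libraries, against 258 and 321 TPM in MEF. Ifit1 was listed at 0 in both CD iPSC libraries, at 0.37 and 0.23 TPM in DMSO iPSC and at 0.32 and 0.08 TPM in R1, against 133 and 115 TPM in MEF. Ifit3 was at 0 in CD iPSC, at 0.78 and 0.35 TPM in DMSO iPSC and at 0 and 0.49 TPM in R1, against 88.8 and 92.2 TPM in MEF. Ifit2 was at 0 in CD iPSC, at 1.03 and 0.63 TPM in DMSO iPSC and at 0.70 and 0.94 TPM in R1, against 36.8 and 31.2 TPM in MEF. The IFIT genes were therefore near the bottom of the scale in each pluripotent line.

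Lgals3bp had 4.11 and 4.68 TPM in CD iPSC, 8.22 and 7.70 in DMSO iPSC and 5.17 and 3.08 in R1, against 272 and 286 TPM in MEF, with changes of −5.66, −4.86 and −5.86. Cxcl10, which attracts T cells, had 0.64 and 0.55 TPM in CD iPSC, 0.75 and 0.54 in DMSO iPSC and 0 and 0.19 in R1, against 58.5 and 72.0 TPM in MEF. B2m had 65.8 and 69.6 TPM in CD iPSC, 79.0 and 74.2 in DMSO iPSC and 47.7 and 52.8 in R1, against 1286 and 1407 TPM in MEF, with changes of −4.25, −4.00 and −4.80. Irgm1, Usp18, Oasl2 and Rtp4 were at 3.46 TPM or less in every pluripotent library and between 36.6 and 82.3 TPM in MEF.

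A minority kept clear levels: 12 members were at 5 TPM or more in every pluripotent library, namely Stat2, Irf9, Irf1, Trim25, Oas1a, Eif2ak2, Bst2, Ifitm1, Ifitm2, Ifitm3, B2m and Ifi27. Ifitm1 was higher in all 3 lines, with 56.7 and 66.3 TPM in CD iPSC, 24.8 and 32.5 in DMSO iPSC and 57.3 and 58.2 in R1, against 12.9 and 13.3 TPM in MEF. Its changes were 2.18 ± 0.16, 1.17 ± 0.16 and 1.98 ± 0.16, with adjusted p of 1.82e-05, 0.000459 and 2.89e-05. Ifitm1 thus stood opposite to Ifitm2 and Ifitm3, which were lower in each line, Ifitm3 with 196 and 231 TPM in CD iPSC, 244 and 267 in DMSO iPSC and 272 and 264 in R1, against 890.0 and 1063 TPM in MEF.

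Trim25 had 40.1 and 39.3 TPM in CD iPSC, 56.5 and 59.1 in DMSO iPSC and 58.8 and 54.4 in R1, against 44.8 and 41.4 TPM in MEF; it was called higher in DMSO iPSC (0.53) and R1 (0.30) and did not pass in CD iPSC (−0.08). In the OAS family, Oas2 was higher in R1 (0.98) and Oas3 in CD iPSC (0.98), each at under 10 TPM. Oas1a was called lower in CD iPSC (−1.17) and DMSO iPSC (−0.43) and did not pass in R1. The transcription factor subunits stayed measurable: Stat2 had 38.9 and 33.8 TPM in CD iPSC, 12.3 and 9.90 in DMSO iPSC and 27.2 and 29.7 in R1, against 86.2 and 75.2 TPM in MEF. Irf9 had 6.22 and 8.00 TPM in CD iPSC, 9.08 and 11.1 in DMSO iPSC and 9.18 and 9.38 in R1, against 52.2 and 62.4 TPM in MEF.

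Among pathway genes, Irf7 was at 1.01 TPM or less in every pluripotent library, against 35.1 and 55.3 TPM in MEF. Of 39 further interferon-stimulated genes that could be tested, 34 were called lower in each line, where 34.2 to 34.7% of all genes were. Of all 44 listed, 14 to 16 were at 1 TPM or more in each pluripotent library, against 39 to 40 in MEF. Many therefore passed the filter only through MEF and had to differ, so this count is a description. The pluripotency gene Pou5f1 was between 1087 and 1532 TPM in the pluripotent libraries and at 0 in MEF. All 15 macrophage markers were at 1 TPM or more in both MEF libraries, and they summed to 59.7 to 63.2 TPM in CD iPSC, 103 to 116 TPM in DMSO iPSC and 44.1 to 48.6 TPM in R1, against 1375 to 1648 TPM in MEF, where Lyz2 alone had 869 and 1057 TPM. Their part in the result was not tested. When 1 MEF library was left out the lower calls numbered 23 or 24, since genes found only in MEF then failed the filter on 2 libraries. Psmb9 and Oas3 lost their calls in CD iPSC without CD iPSC replicate 2 or either MEF library (−1.05 to −0.65 and 0.56 to 1.04), and Oas1a in DMSO iPSC without any 1 library of that comparison (−0.53 to −0.31). In R1, Trim25 lost its call without either MEF library or R1 replicate 1 (0.23 to 0.34).

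**Figure D4:**
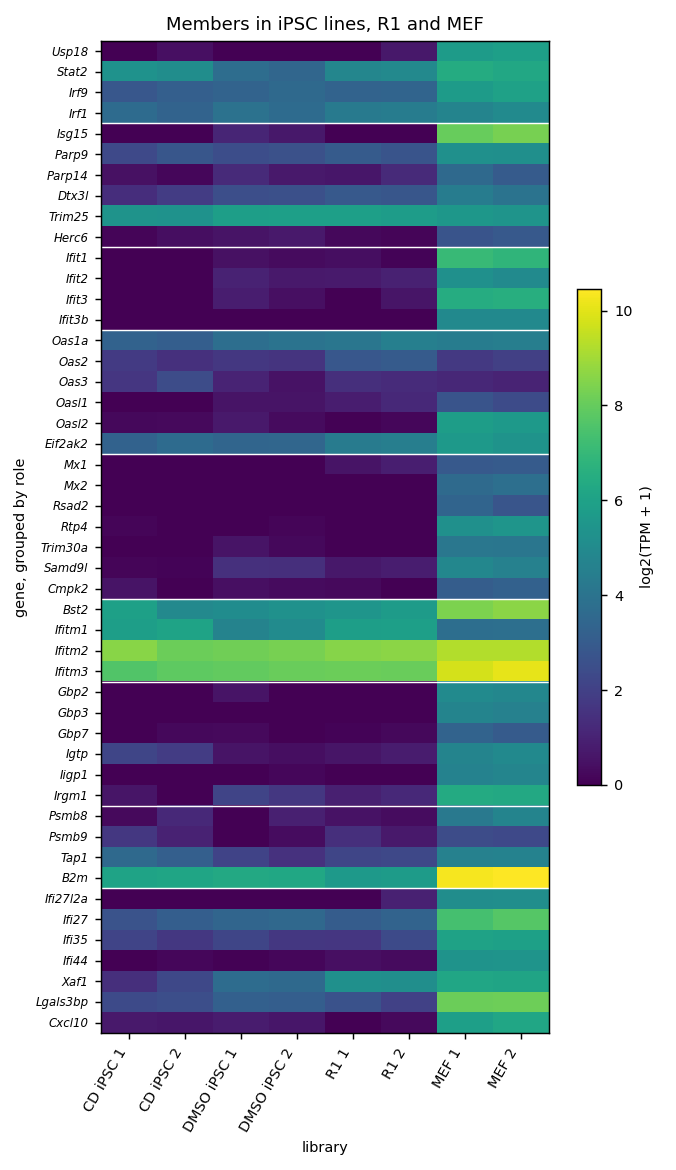
Level of each member as log2(TPM + 1) (colour) in the 8 libraries of CD iPSC, DMSO iPSC, R1 and MEF (columns), with genes grouped by role (rows, white lines between groups). The MEF columns are brighter for nearly all members; 12 members, among them Ifitm1, Ifitm2, Ifitm3, B2m and Trim25, stay at 5 TPM or more in every pluripotent library.

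Between the iPSC lines, Stat2, Tap1 and Ifitm1 were called higher and Xaf1 lower in CD iPSC than in DMSO iPSC. In CD iPSC against DMSO iPSC, 6 of 48 were called higher and 9 lower, where 17.6% of genes were called higher and 21.1% lower. However, 24 of the 48 were not at 1 TPM in 2 or more libraries of these lines. They passed the filter only with the R1 or MEF libraries, so those shares are not compared. Stat2 was higher (1.56 ± 0.14, adjusted p = 0.000369), as were Tap1, at 11.0 and 8.05 TPM in CD iPSC, against 3.28 and 1.79 TPM in DMSO iPSC (1.54 ± 0.23), and Ifitm1 (1.01 ± 0.16). With only these 2 groups fitted, 24 members could be tested, of which 5 were called higher and 7 lower. The share of all genes called in that fit is not given here. In the fit with all groups, Igtp (1.52), Oas3 (1.24) and Psmb9 (1.17) were also called higher, at under 5 TPM. They averaged 0.39, 0.76 and 0.14 TPM in DMSO iPSC. Of these 2 lines, only CD iPSC averaged 1 TPM or more for them, so their direction is a description.

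Xaf1 had 1.69 and 3.86 TPM in CD iPSC, against 11.995 and 10.9 TPM in DMSO iPSC (−1.85 ± 0.27, adjusted p = 0.00236). Oas1a (−0.74), Trim25 (−0.61) and Lgals3bp (−0.80) were called lower with levels of at least 4.11 TPM in each line. Irgm1 (−1.72), Samd9l (−1.36) and Dtx3l (−0.98) were called lower at levels under 5 TPM. Irgm1 and Samd9l averaged 0.25 and 0.09 TPM in CD iPSC, against 2.87 and 1.69 TPM in DMSO iPSC. Their direction is likewise a description. The 9 also include Isg15 and Ifit2, which passed the filter only through MEF and were at 0 in both CD iPSC libraries, against 1.11 TPM or less in DMSO iPSC, so no change is given for them. Dtx3l (−1.0023 to −0.70), Lgals3bp (−0.85 to −0.69) and Psmb9 (0.84 to 1.37) lost their calls without CD iPSC replicate 1 or either DMSO iPSC library, and Oas3 without CD iPSC replicate 2 or DMSO iPSC replicate 2 (0.82 to 0.96). Oas1a lost its call without DMSO iPSC replicate 2 (−0.64). In CD iPSC 9 of 15 macrophage markers (median −0.91) and 6 of 10 fibroblast markers (median −1.10) were called lower, the fibroblast markers with sums of 106 to 117 TPM in CD iPSC, against 256 to 260.3 TPM in DMSO iPSC. Their part in the result was not tested.

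Against R1, 3 members were called higher and 10 lower in CD iPSC, where 10.3% of genes were called higher and 12.5% lower. In DMSO iPSC 5 were called higher and 6 lower, where 9.52% and 7.01% were. These comparisons share the R1 libraries. Of the 48 members, 26 were not at 1 TPM in 2 or more libraries of CD iPSC and R1. For DMSO iPSC and R1 that number was 25. Such members passed the filter only with libraries of other groups, so the shares are not compared. Ifit2 and Mx1, called lower in CD iPSC, averaged 0 there and 0.82 and 0.65 TPM in R1. Isg15, called higher in DMSO iPSC, averaged 0.85 TPM there and 0 in R1. Macrophage markers called higher numbered 2 of 15 in CD iPSC and 8 of 15 in DMSO iPSC, and fibroblast markers 3 of 10 and 7 of 10; their part in the result was not tested. Xaf1 was lower in both CD iPSC (−3.25 ± 0.27) and DMSO iPSC (−1.40 ± 0.27), against 37.5 and 35.2 TPM in R1. Eif2ak2 had 8.82 and 11.6 TPM in CD iPSC (−0.83 ± 0.17) and 9.54 and 9.88 TPM in DMSO iPSC (−0.81 ± 0.17), against 19.6 and 21.1 TPM in R1.

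B2m was higher than in R1 in both CD iPSC (0.54 ± 0.10) and DMSO iPSC (0.80 ± 0.10), and Tap1 in CD iPSC (1.25 ± 0.23). Oas1a (−0.97), Irf1 (−0.74) and Dtx3l (−1.11) were lower in CD iPSC, Stat2 (−1.10) and Ifitm1 (−0.80) were lower in DMSO iPSC, and Oas2 was lower in both (−1.20 and −1.12). Most of these calls rest on single libraries. In CD iPSC, those of Tap1 (1.23 to 1.27), B2m (0.49 to 0.59), Eif2ak2 (−0.86 to −0.80) and Dtx3l (−1.20 to −1.03) were lost without either R1 library, and those of Oas1a (−0.79) and Oas2 (−1.14) without R1 replicate 2. That of Irf1 was lost without CD iPSC replicate 2 or either R1 library (−0.78 to −0.62). In DMSO iPSC, those of Oas2 (−1.20 to −1.05), Xaf1 (−1.46 to −1.33) and Eif2ak2 (−0.84 to −0.78) were lost without any 1 library of the comparison, and that of Ifitm1 without DMSO iPSC replicate 1 or either R1 library (−0.82 to −0.61). With single libraries left out, 1 to 4 members were called higher and 1 to 8 lower in CD iPSC, and 1 to 2 higher and 1 to 2 lower in DMSO iPSC.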

How the data were processed

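The 32 libraries were grouped by their labels. The submitters' processing notes list HISAT2 2.1.0, StringTie 2.0, fastp 0.20.1 and mm10; no source used here gives options or strandedness. The authors deposited TPM in 4 tables, from which sequencing depth cannot be read. The deposited signal of the actinomycin D table has no named unit; dividing by each library's smallest step gave whole reads within 0.05 for at least 99.992% of non-zero values, with 15382821 to 24186485 reads per library, so it was read as RPM, which carries each library's total. On those reads edgeR called 1117 genes higher and 1857 lower, and DESeq2 2091 and 2074, in CD 0 h against DMSO 0 h; the 2 tools were alternatives there.

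Each library was divided by its median ratio to a geometric-mean library. A gene needed a value of 1 in 2 or more libraries of its table to enter limma 3.58.1 (R 4.3.3) on log2(value + 1), with eBayes and a mean trend; the actinomycin D and iPSC tables were each fitted whole. Fold changes on this scale understate those of low genes. Precision is limited by 2 libraries a group. The scripts were tested on simulated data. Alternatives were deposited scaling, a pseudocount of 0.1, no filter or a filter of 5, the replicate number as a block, each library left out, 2 groups alone, ERCC scaling, edgeR 4.0.16 and DESeq2 1.42.0.

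Members, lists and the rule for named genes were chosen with earlier results of these data known. The rule gives every library's value for called members without overlap whose higher group averages at least 5, up to 6 per direction by size of change, for family members that go the other way, and for 8 members in every table; up to 4 genes with the smallest p per pathway list are named, with Irf7. One item of the pathway lists is not reported here. Other members named were chosen after their values were seen. By 50-base words of GENCODE M21 transcripts, 9 members share over 10% with another gene, and 19 have an exon that overlaps another gene.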

Additional observations from a re-analysis of the deposited data

How the results depend on the processing

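Counts of members called higher and lower changed by over 1.5 times as follows. With deposited scaling, 2 were lower with CD, 14 higher and 3 lower with Rxra overexpression, 0 lower in CD 0 h against DMSO 0 h, 5 higher in CD 8 h against 0 h, and 0 higher and 15 lower in DMSO 8 h against 0 h. Without the filter, 2 were lower with CD, 6 lower with Exosc3 knockdown, 2 higher and 0 lower in CD 0 h against DMSO 0 h, 0 higher in DMSO 8 h against 0 h, 1 higher in CD iPSC against MEF and 3 higher in DMSO iPSC against R1. With a filter at 5, 4 were higher and 4 lower with Rxra overexpression and 1 higher in CD iPSC against MEF. With ERCC scaling, 0 were higher and 0 lower in CD 0 h against DMSO 0 h, 4 higher and 18 lower in CD 8 h against 0 h, and 0 higher in DMSO 8 h against 0 h. With only the 2 groups compared in the fit, 0 were higher and 0 lower in CD 0 h against DMSO 0 h, 0 higher and 4 lower in DMSO 8 h against 0 h, 6 lower in CD iPSC against R1 and 3 higher in DMSO iPSC against R1. DESeq2 called 7 higher in CD 0 h against DMSO 0 h, 4 higher in DMSO 8 h against 0 h and 1 higher for the difference between arms, and edgeR called 1 higher in DMSO 8 h against 0 h. The cause of these changes was not tested, except that a stricter filter and a fit of 2 groups test fewer genes or use fewer samples.

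With the replicate number as a block, 0 members were lower in CD 0 h against DMSO 0 h, 0 higher in DMSO 8 h against 0 h and 2 higher in DMSO iPSC against R1; other counts stayed within 1.5 times. Deviations of same-numbered libraries correlated at −0.51 to 0.55, so the numbers are not taken as pairs.

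Leaving out 1 library gave ranges of 18 to 22 higher and 2 to 4 lower with CD, 5 to 9 and 4 to 5 with Rxra overexpression, 1 to 1 and 7 to 9 with Exosc3 knockdown, 0 to 9 and 0 to 5 in CD 0 h against DMSO 0 h, 4 to 12 and 7 to 11 in CD 8 h against 0 h, and 0 to 6 and 1 to 8 in DMSO 8 h against 0 h. For the iPSC table they were 4 to 6 higher and 5 to 12 lower in CD iPSC against DMSO iPSC, 1 to 2 and 24 to 44 in CD iPSC against MEF, 2 to 2 and 24 to 43 in DMSO iPSC against MEF, 2 to 3 and 23 to 42 in R1 against MEF, 1 to 4 and 1 to 8 in CD iPSC against R1, and 1 to 2 and 1 to 2 in DMSO iPSC against R1. The difference between arms stayed at 0. A group with 1 library left was assumed to vary like the others.

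With deposited scaling Ifi27 (0.28), Irgm1 (0.20), Rtp4 (0.04) and Lgals3bp (0.20) reversed with Rxra overexpression, and with ERCC scaling Ifitm1 (−0.0271) reversed in CD 8 h against 0 h. TPM carry no depth, so low members cannot be given a detection limit.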
